A study of Mus musculus with 16 samples.

Results

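A set of 10 genes of the heat shock response were followed in mouse kidney after tubular deletion of Vhl, after glycerol-induced acute kidney injury (AKI), and after both. They were chosen by name, with earlier results of these data known: Hspa1a, Hspa1b, Hsph1, Dnajb1, Hspb1, Hspb8, Hspa8, Hsp90aa1, Hspd1 and Bag3. The counts below therefore describe these genes and do not test them as a set. Of the 10 genes, 9 had an array row (probe set) paired with that gene alone, out of 19938 genes tested. Hspa1b had no such row and is described only through a row that it shares with Hspa1a.

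Every mouse carried a transgenic system, driven by Pax8-rtTA according to the study cited in the design text, that deletes Vhl in kidney tubules once doxycycline is given. The genotype label nevertheless reads wild type for the mice without doxycycline. The control group (n = 3) had no treatment. Doxycycline alone, injected under the skin at 0.1 mg per 10 g with sacrifice 4 days later, defined the VHL-KO group (n = 3). Glycerol alone, 50% and 0.05 ml per 10 g into a hind limb muscle, defined the AKI group (n = 5), and both agents the VHL-KO/AKI group (n = 5). Both injured groups had no drinking water from 20 h before to 24 h after glycerol. Water withdrawal without glycerol, and doxycycline without deletion, were not among the groups. Total RNA of snap-frozen kidney tissue was measured on 16 arrays, 1 per labelled biological replicate, and both sexes were used.

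Heat shock proteins are chaperones that hold, refold or hand over damaged proteins. Unfolded protein in the cytosol releases heat shock factor 1 (HSF1), which binds inverted repeats of the letters GAA in promoters and switches on the inducible chaperones. Constitutive chaperones such as Hspa8 fold new proteins in every cell. In the kidney, the inducible forms are known to rise after ischaemic and toxic tubule damage.

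The promoter windows are shown because HSF1 binds a known letter pattern in promoters. A further reason is that the windows of Hspa1a and Hspa1b are close to identical. RefSeq windows (build GRCm38.p6, 250 bases before to 50 after an annotated start) were held for 8 of the 10 genes. Those of Hspa8 and Hsp90aa1 were not used here. The windows lie at chr17:34972107-34972406 (minus strand) for Hspa1a, chr17:34959189-34959488 (minus strand) for Hspa1b, chr5:149636287-149636586 (minus strand) for Hsph1, chr5:135887669-135887968 (plus strand) for Hspb1, chr7:128523333-128523632 (plus strand) for Bag3 and chr1:55087883-55088182 (minus strand) for the second of 2 Hspd1 windows. Capitals mark every match to GAANNTTC or TTCNNGAA, which are a pair of inverted GAA units and read the same on both strands.
Hspa1a: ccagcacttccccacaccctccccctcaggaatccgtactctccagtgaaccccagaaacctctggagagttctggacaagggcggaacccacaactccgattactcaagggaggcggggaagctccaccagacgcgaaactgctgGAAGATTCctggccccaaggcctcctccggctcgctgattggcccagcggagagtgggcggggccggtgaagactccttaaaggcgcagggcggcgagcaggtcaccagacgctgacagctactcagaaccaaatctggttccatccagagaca
Hspa1b: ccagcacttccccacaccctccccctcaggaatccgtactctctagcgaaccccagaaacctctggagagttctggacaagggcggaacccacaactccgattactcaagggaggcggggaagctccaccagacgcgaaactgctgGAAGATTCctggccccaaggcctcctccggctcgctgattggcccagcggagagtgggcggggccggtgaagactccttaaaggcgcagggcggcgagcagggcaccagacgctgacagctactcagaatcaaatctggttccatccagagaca
Hsph1: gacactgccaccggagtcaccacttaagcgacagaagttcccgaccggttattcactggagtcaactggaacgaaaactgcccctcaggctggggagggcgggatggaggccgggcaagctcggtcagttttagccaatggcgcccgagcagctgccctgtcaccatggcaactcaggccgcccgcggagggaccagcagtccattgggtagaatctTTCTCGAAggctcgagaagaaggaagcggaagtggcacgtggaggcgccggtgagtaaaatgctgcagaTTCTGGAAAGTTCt
Hspb1: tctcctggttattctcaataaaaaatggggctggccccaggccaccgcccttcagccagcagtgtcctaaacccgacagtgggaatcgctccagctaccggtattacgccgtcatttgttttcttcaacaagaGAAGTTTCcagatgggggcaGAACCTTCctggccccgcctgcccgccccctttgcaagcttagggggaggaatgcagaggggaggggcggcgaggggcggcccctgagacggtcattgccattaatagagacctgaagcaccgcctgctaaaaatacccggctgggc
Bag3: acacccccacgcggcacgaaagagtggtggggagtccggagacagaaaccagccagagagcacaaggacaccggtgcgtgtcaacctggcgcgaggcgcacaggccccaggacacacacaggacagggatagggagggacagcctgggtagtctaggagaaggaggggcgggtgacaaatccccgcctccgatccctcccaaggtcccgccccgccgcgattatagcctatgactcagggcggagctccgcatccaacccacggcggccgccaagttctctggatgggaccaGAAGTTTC
Hspd1: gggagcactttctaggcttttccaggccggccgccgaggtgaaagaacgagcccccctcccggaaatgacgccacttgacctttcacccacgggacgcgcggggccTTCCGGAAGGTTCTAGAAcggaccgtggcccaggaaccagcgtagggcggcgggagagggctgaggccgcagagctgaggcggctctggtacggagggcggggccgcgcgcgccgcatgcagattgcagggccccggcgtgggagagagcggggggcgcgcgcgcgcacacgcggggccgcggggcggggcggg

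A match to this 2-unit pattern was found in the windows of 7 of the 8 genes, with Dnajb1 as the exception, against 17% of 27025 genes with a window of the same length. Neighbouring matches can overlap and then form the 3-unit pattern, GAANNTTCNNGAA or TTCNNGAANNTTC, which was present in 0.662% of genes. Hsph1 and Hspd1 held it. Hsph1 has 2 overlapping windows, of which the first is shown. The match starts 36 bases after the annotated start of the first window and 15 bases after that of the second. In Hspd1 the 3-unit pattern occurs 2 times within 1 run of capitals. Hspa1a and Hspa1b differed at 4 of 300 positions, and both carried their match 104 bases before the start. The letters ACGTG or CACGT are the core of the element that hypoxia-inducible factors bind. They occurred in the windows of 3 of the 8 genes (Hsph1, Dnajb1 and Hspd1), against 21.8% of genes. In Hspd1 they lay only in the first window, which is not shown and held no match to the 2-unit pattern. Dnajb1 also has 2 windows, neither of them shown, and held the letters only in the second, which lies further downstream. A match to letters describes the window only.

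The arrays were first set against their labels. Vhl was lower in each of the 8 arrays with deletion (6.35 to 6.70 on the log2 scale) than in each of the 8 without it (7.01 to 7.36). Vhl fell by 0.67 in VHL-KO/AKI against AKI (SE 0.0674, limma adjusted p = 9.98e-05), and its difference of -0.40 in VHL-KO against control did not pass (adjusted p = 0.0565). The tissue markers fit kidney, with 10 proximal tubule genes averaging 12.31 to 12.38 in controls, whereas 8 skeletal muscle genes averaged 4.95 to 5.03. Xist, the RNA that coats the silenced X chromosome of female cells, lay at 10.23 to 11.47 in the 6 uninjured arrays and at 4.16 to 5.08 after injury (10 arrays). Uty, Eif2s3y and Kdm5d, which are Y-linked, averaged 7.77 to 8.26 in injured arrays, 4.81 to 5.01 in 5 uninjured arrays and 7.43 in Control 3. Injury and this sex-linked signal therefore cannot be told apart. Only Control 3 departs from this split, and it held both signals, with Xist at 10.23. AKI 4 stood apart from its group, with a mean correlation of 0.973 to the other AKI arrays against 0.988 to 0.989 for the rest.

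Injury without deletion was compared with control to ask which chaperones respond to glycerol. Of the 9 genes, 7 rose, 0 fell and 2 did not pass, where 13.2% of all genes rose and 14.9% fell (28.1% in either direction). The median difference of the 9 genes was 1.45 on the log2 scale, against 0.02 over all genes. Hspb1, a small heat shock protein, rose 8.90-fold and Hspa1a, the inducible HSP70, 5.65-fold. The constitutive Hspa8 and the mitochondrial chaperonin Hspd1 did not pass. In bulk tissue, a change in the number of cells of a type and a change in RNA per cell cannot be told apart.

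**Figure D1:**
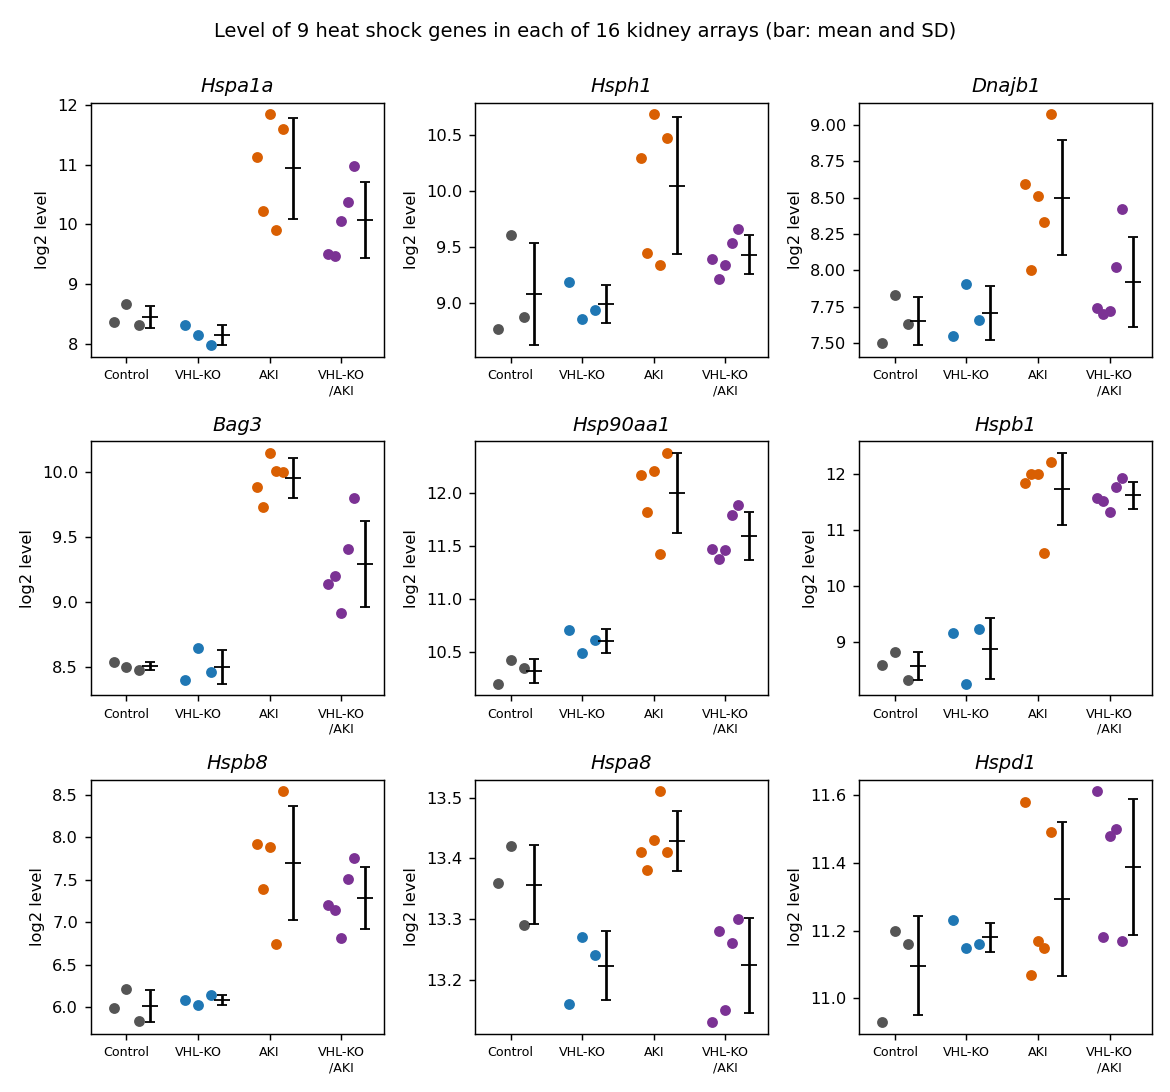
Log2 level (vertical axis) of 9 heat shock genes in 16 kidney arrays, by group, with 1 point per array in replicate order from left to right and a bar for the group mean and SD. In 6 panels every AKI array lies above every control array, and the Hspa8 and Hspd1 panels span less than 1 log2 unit.

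The inducible HSP70 machine consists of a chaperone, its nucleotide exchange factors and a J-domain partner. Hspa1a binds unfolded protein and stood at 8.37, 8.66 and 8.31 in the 3 controls, and at 11.13, 10.23, 11.84, 9.90 and 11.60 in AKI 1 to 5. All AKI arrays lay above all controls, but their own spread was wide (SD 0.85, against 0.19 in controls). The difference was 2.50 (SE 0.408, limma adjusted p = 0.000429). Hsph1, the HSP110 protein that exchanges nucleotide on HSP70, stood at 8.76, 9.60 and 8.87 in controls and at 10.29, 9.44, 10.68, 9.34 and 10.47 in AKI. The groups overlapped, since AKI 2 and AKI 4 lay below Control 2. Hsph1 rose by 0.97 (SE 0.278, adjusted p = 0.0168), and this call was lost without Control 1 (adjusted p = 0.0907) or without Control 3 (adjusted p = 0.0729).

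Dnajb1, the J-domain protein that delivers clients to HSP70, stood at 7.50, 7.83 and 7.63 in controls and at 8.59, 8.0, 8.51, 8.33 and 9.07 in AKI. The groups did not overlap, and Dnajb1 rose by 0.84 (SE 0.205, adjusted p = 0.00624). Bag3 ties HSP70 to the small heat shock proteins and to selective autophagy. It stood at 8.54, 8.50 and 8.48 in controls and at 9.89, 9.73, 10.15, 10.01 and 10.00 in AKI. Both groups were tight (SD 0.03 and 0.16), and Bag3 rose 2.73-fold (difference 1.45, SE 0.15, adjusted p = 1.66e-05).

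The row shared by Hspa1a and Hspa1b moved with the Hspa1a row. It averaged 8.92 ± 0.37 in controls (SD, n = 3) and 11.15 ± 0.78 in AKI (n = 5), a difference of 2.23 (SE 0.376, adjusted p = 0.000986 over all 35556 rows). Its AKI arrays (10.11 to 11.93) lay above its controls (8.50 to 9.20). How much of either row's signal comes from Hspa1b was not tested.

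Hsp90aa1 is the stress-inducible HSP90 of the cytosol, which matures kinases and receptors and keeps HSF1 silent at rest. It stood at 10.20, 10.42 and 10.35 in controls and at 12.17, 11.82, 12.21, 11.43 and 12.38 in AKI. Every AKI array lay at least 1 log2 unit above every control, and the gene rose 3.20-fold (difference 1.68, SE 0.177, adjusted p = 1.75e-05). Its other 2 rows gave differences of 1.62 and 1.67. All 3 rows list the same transcript records, so they are not independent readings.

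The small heat shock proteins hold unfolded proteins without using ATP. Hspb1 (HSP25 in mice), which also guards actin filaments, stood at 8.59, 8.81 and 8.31 in controls and at 11.84, 11.99, 12.00, 10.59 and 12.20 in AKI. AKI 4 was the lowest injured array and still lay above all controls, and Hspb1 rose by 3.15 (SE 0.309, adjusted p = 1.11e-05). Hspb8, the partner of Bag3 in chaperone-assisted autophagy, stood at 5.99, 6.22 and 5.84 in controls and at 7.92, 7.39, 7.89, 6.74 and 8.54 in AKI. The groups did not overlap, and Hspb8 rose 3.20-fold (difference 1.68, SE 0.297, adjusted p = 0.000774).

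The members with housekeeping roles moved little. Hspa8, the constitutive HSP70 that also strips clathrin coats, stood at 13.36, 13.42 and 13.29 in controls and at 13.41, 13.38, 13.43, 13.51 and 13.41 in AKI, and the groups overlapped. Its difference was 0.07 (95% interval -0.05 to 0.19, adjusted p = 0.416). Hspd1, the mitochondrial chaperonin HSP60, ranged from 10.93 to 11.20 in controls and from 11.07 to 11.58 in AKI. Its difference was 0.19 (95% interval -0.08 to 0.47, adjusted p = 0.297). The second Hspd1 row lay about 1 log2 unit lower and gave a difference of 0.21 (adjusted p = 0.422 over all rows).

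**Figure D2:**
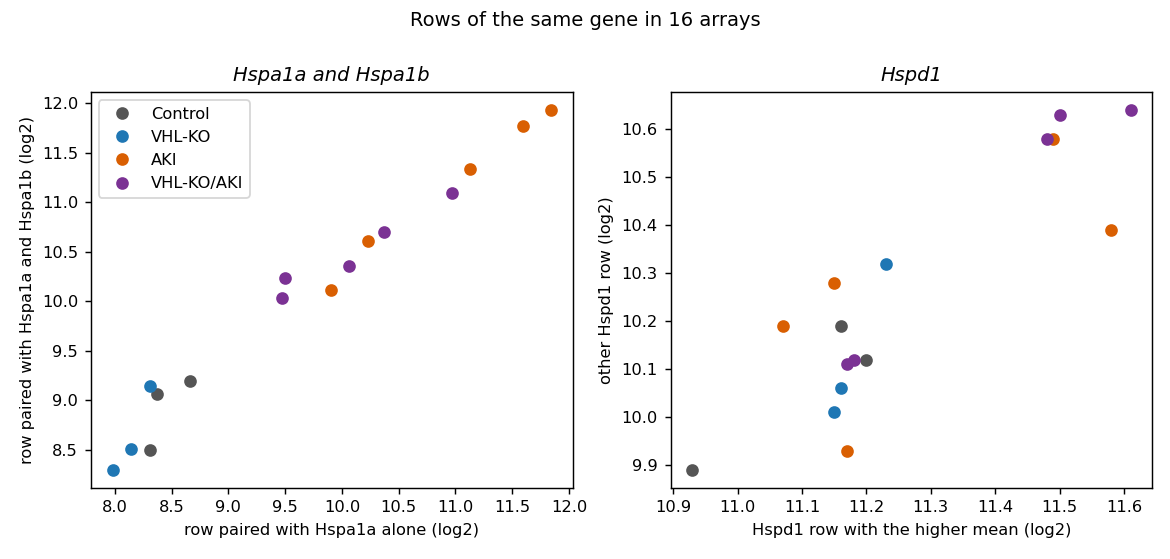
Log2 levels of pairs of rows in the same 16 arrays, with 1 point per array coloured by group. Left, the row paired with both Hspa1a and Hspa1b against the row paired with Hspa1a alone. Right, the Hspd1 row not used in the tests against the row used. The Hspa1 rows order the 5 arrays of each injured group the same way, whereas both Hspd1 rows stay within a narrow range.

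Other measures moved with injury in the same arrays. Of 6 injured tubule markers, 5 rose, and their list mean went from 7.07 to 7.23 in controls to 9.48 to 11.11 in AKI. Neutrophil markers rose in 6 of 7 cases (list mean 4.50 to 4.59 against 5.22 to 6.12), and 9 of 10 proximal tubule genes fell (12.31 to 12.38 against 10.45 to 11.92). Of 8 skeletal muscle genes, Acta1 rose by 0.55 and 7 did not pass, with Ckm differing by 0.06 and Mb by 0.00. The part of these shifts in the chaperone differences was not tested. Control 3, the uninjured array with both Xist and Y-linked signal, gave the lowest control value of Hspa1a, Hspb1, Hspb8, Hspa8 and Bag3. It gave the middle value of the other 4 members. When the sex-linked level entered as a covariate, 0 of the 19938 genes were called. The differences of Hspb1, Bag3 and Hsph1 were then 3.45, 1.69 and 1.12 (limma unadjusted p = 0.0243, 0.0229 and 0.378). Those of Hspa1a, Hspb8, Hsp90aa1 and Dnajb1 were 2.34, 1.51, 1.23 and 0.67 (limma unadjusted p = 0.215, 0.271, 0.133 and 0.471). The covariate splits the arrays as injury does except in Control 3. These differences rest mostly on that array, so they cannot separate injury from the sex-linked signal.

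In kidneys with deleted Vhl, injury was compared with VHL-KO. Of the 9 genes, 5 rose and 0 fell, where 4.66% of all genes rose and 8.91% fell (13.6% in either direction). Hspb1 rose 6.67-fold, from 9.16, 8.25 and 9.22 in VHL-KO to 11.56, 11.51, 11.31, 11.76 and 11.93 in VHL-KO/AKI (difference 2.74, SE 0.309, adjusted p = 8.92e-05). Hspa1a rose 3.81-fold, from 8.31, 8.14 and 7.98 to 9.50, 9.47, 10.06, 10.37 and 10.97 (difference 1.93, SE 0.408, adjusted p = 0.00593). For both genes the groups lay well apart.

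Hspb8, Hsp90aa1 and Bag3 also rose, by 1.20 (adjusted p = 0.0149), 0.99 (adjusted p = 0.00205) and 0.79 (adjusted p = 0.00316), and for each all injured arrays lay above all VHL-KO arrays. The Hspb8 call was lost without VHL-KO 2 (adjusted p = 0.0546). Hsph1 differed by 0.44 (adjusted p = 0.342) although its arrays did not overlap either, with VHL-KO at 8.85 to 9.18 and VHL-KO/AKI at 9.21 to 9.66. Dnajb1 differed by 0.21 (95% interval -0.23 to 0.65), with overlap. Hspa8 and Hspd1 differed by 0.00 and 0.21 (95% intervals -0.12 to 0.13 and -0.06 to 0.48). Non-overlap upward held for 6 of the 9 genes here, against 9.42% of all genes, and for 6 of 9 in AKI against control, against 13.5% of all genes. Non-overlap downward held for 0 of the 9 in both comparisons, against 14.9% of all genes here and 13.8% in AKI against control. The same sex-linked difference ran along this comparison, and with it as a covariate 0 genes were called. The differences were then 3.08 for Hspb1, 1.75 for Hspa1a, 1.07 for Bag3 and 1.00 for Hspb8 (limma unadjusted p = 0.0749, 0.423, 0.187 and 0.529). That of Hsp90aa1 went from 0.99 to 0.46 (limma unadjusted p = 0.617). This fit cannot separate injury from the sex-linked signal either. Tissue markers also moved in this comparison. Of 6 injured tubule genes 5 rose (median 3.10), whereas 5 of 10 proximal tubule, 2 of 6 thick ascending limb, 4 of 4 distal convoluted tubule, 3 of 7 collecting duct, 3 of 4 podocyte and 5 of 6 endothelial genes fell. Of 7 macrophage genes 2 rose and 1 fell, and 0 of 7 neutrophil genes passed. The part of these shifts in the chaperone differences was not tested.

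Deletion of Vhl without injury was compared with control to ask whether it moves the chaperones by itself. None of the 9 genes passed (0 of 9, limma, and 0 at an unadjusted p under 0.05), where 0.476% of all genes rose, 0.0502% fell (0.527% in either direction) and 8.35% had an unadjusted p under 0.05. Differences ran from -0.30 (Hspa1a) to 0.30 (Hspb1), with a median of 0.05. With 1 array left out, Hspa1a ranged from -0.38 to -0.19 (the latter without Control 2) and Hspb1 from 0.13 (without VHL-KO 3) to 0.61 (without VHL-KO 2). The 95% intervals with all arrays were -1.27 to 0.67 for Hspa1a and -0.43 to 1.04 for Hspb1, so changes of up to about 1 log2 unit in these genes are not shut out by 3 arrays a group. Bag3 was measured more tightly, with a difference of 0.00 (95% interval -0.36 to 0.35).

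A pair of genes separated the uninjured groups without passing the test. Hsp90aa1 stood at 10.71, 10.49 and 10.61 in VHL-KO, above all controls (difference 0.28, adjusted p = 0.796). Hspa8 stood at 13.16, 13.27 and 13.24, below all controls (difference -0.13, adjusted p = 0.62). Non-overlap of this kind held for 11.8% of all genes upward and 5.33% downward.

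**Figure D3:**
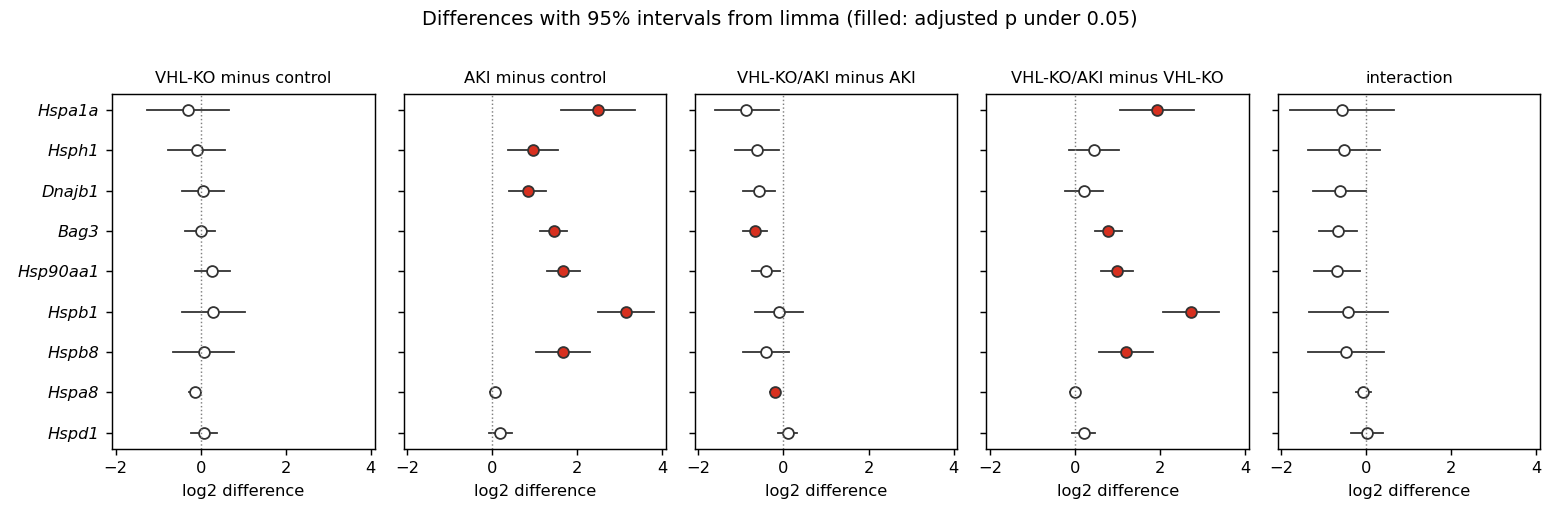
Log2 difference (horizontal axis) of each gene in 5 comparisons, with the 95% interval of the limma fit and a filled point where the adjusted p is under 0.05. Filled points number 7 for AKI minus control, 5 for VHL-KO/AKI minus VHL-KO and 2 for VHL-KO/AKI minus AKI, and 0 in the other panels.

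Deletion in injured kidneys was tested by comparing VHL-KO/AKI with AKI. Bag3 and Hspa8 fell (2 of 9), none rose and 7 did not pass, where 1.4% of all genes fell and 2.48% rose (3.88% in either direction). The median difference was -0.41, against -0.01 over all genes. Bag3 stood at 9.14, 9.20, 8.92, 9.41 and 9.80 in VHL-KO/AKI, where VHL-KO/AKI 5 alone overlapped the AKI range of 9.73 to 10.15. Bag3 fell by 0.66 (SE 0.13, adjusted p = 0.014), to a mean between those of control and AKI. In a fit of the compared groups alone this call was lost (adjusted p = 0.0676).

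Hspa8 stood at 13.13, 13.28, 13.15, 13.26 and 13.30 in VHL-KO/AKI, below all AKI arrays. It was the only 1 of the 9 genes whose arrays did not overlap downward, against 1.58% of all genes, and none did so upward, against 2.19%. The fall was small, 0.20 on the log2 scale (SE 0.0505, adjusted p = 0.0387). It was close to the threshold and was lost on leaving out any 1 of 9 arrays (Control 1, VHL-KO 3, AKI 1, 3 and 5, and VHL-KO/AKI 1 to 4; adjusted p = 0.0501 to 0.114), and under quantile scaling (adjusted p = 0.105). The other 2 rows paired with Hspa8 alone differed by -0.22 and -0.21 (adjusted p = 0.093 and 0.0786 over all rows). They share transcript records with the row used, so they are not independent readings. A further 2 rows, paired with Snord14c and Snord14d as well as Hspa8, both differed by -0.55 (limma adjusted p = 0.274 and 0.28 over all rows).

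The other inducible genes were lower on average but overlapped. Hspa1a differed by -0.87 (95% interval -1.62 to -0.11, adjusted p = 0.196), Hsph1 by -0.62 (adjusted p = 0.176), Dnajb1 by -0.58 (adjusted p = 0.0845) and Hsp90aa1 by -0.41 (adjusted p = 0.161). With Bag3 and Hspa8, 6 of the 9 genes had an unadjusted p under 0.05, against 18.7% of all genes. Hspb8 differed by -0.41 (95% interval -0.96 to 0.14) and Hspd1 by 0.10 (-0.14 to 0.33). Hspb1, the gene with the largest response to injury, differed by -0.11 (95% interval -0.68 to 0.46, adjusted p = 0.876). Its AKI mean includes AKI 4 at 10.59, against 11.84 to 12.20 in the other AKI arrays. The Hspb1 medians were 11.99 in AKI and 11.56 in VHL-KO/AKI. With 1 array left out, its difference ran from -0.40 (without AKI 4) to 0.01 and was not called (lowest limma adjusted p = 0.187).

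The calls in this comparison depended on single arrays, among them AKI 4. Without AKI 4, 6 of the 9 genes were called lower: Hspa1a (-1.13, adjusted p = 0.0327), Hsph1 (-0.79, adjusted p = 0.0296), Hsp90aa1 (-0.55, adjusted p = 0.0099), Dnajb1 (-0.62, adjusted p = 0.0447), and Bag3 and Hspa8 as before. The count over all 19938 genes also went up when AKI 4 was left out, from 774 (495 rose and 279 fell) to 2384 (1442 rose and 942 fell). It was 1591 without VHL-KO/AKI 5. Other single arrays lowered it, to 292 without AKI 3, 340 without AKI 5, and 229, 291 and 258 without VHL-KO/AKI 1, 2 and 3. Dnajb1 alone joined Bag3 and Hspa8 without AKI 2 (-0.70, adjusted p = 0.0347) or without VHL-KO/AKI 5 (-0.70, adjusted p = 0.02). Markers of neutrophils were lower in VHL-KO/AKI, with a list mean of 4.63 to 5.42 against 5.22 to 6.12 in AKI and 2 of 7 called. The injured tubule list mean was 9.77 to 10.89 against 9.48 to 11.11, with 0 of 6 called. Of 7 collecting duct genes 2 rose, Scnn1g by 0.82 and Scnn1b by 0.40 (list mean 8.39 to 9.08 against 8.18 to 8.63). Kcnj1 alone of 6 thick ascending limb genes rose, by 1.28, with a list median of 0.93. Of 6 smooth muscle and pericyte genes 2 fell, Tagln by 0.93 and Acta2 by 0.57. The part of these shifts in the chaperone differences was not tested. Xist and the Y-linked genes did not pass here, and Bag3 and Hspa8 were still the 2 members called when the sex-linked covariate was added.

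**Figure D4:**
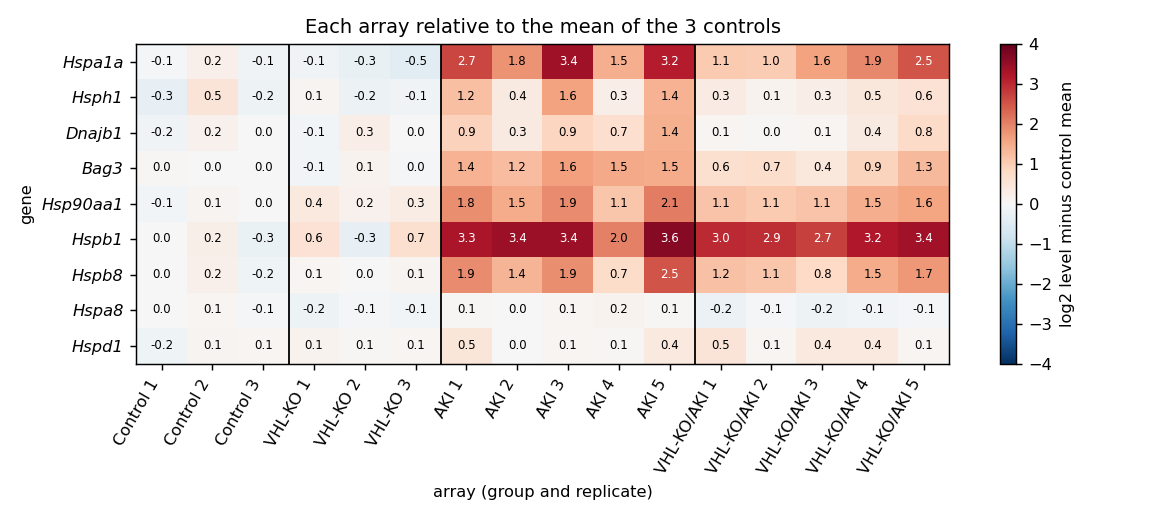
Log2 level of each gene in each array minus the mean of the 3 controls for that gene, printed and coloured from blue (lower) to red (higher). AKI 4 is paler than the other AKI arrays for Hspa1a, Hspb1, Hspb8 and Hsp90aa1, and VHL-KO/AKI 5 holds the highest value of its group for 8 of the 9 genes.

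Within the injured groups the inducible genes tended to be high or low in the same arrays. AKI 4 held the lowest value of 5 of the 9 genes (Hspa1a, Hsph1, Hspb1, Hspb8 and Hsp90aa1), and AKI 3 or AKI 5 the highest value of 7. In AKI 4 Bag3 was not low, at 10.01, the second highest of its group. VHL-KO/AKI 5 held the highest value of 8 genes, all except Hspd1. Tubule markers differed in these arrays too. In AKI 4 the injured tubule list stood at 9.48, against 10.80 to 11.11 in the other AKI arrays, and the proximal tubule list at 11.92, against 10.45 to 11.08. In VHL-KO/AKI 5 the injured tubule list was the highest of its group (10.89) and the proximal tubule list the lowest (10.80). The part of these differences in the chaperone levels was not tested.

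The interaction asks whether deletion changes these genes differently in injured and uninjured kidneys. None of the 9 genes was called (0 of 9, limma), where 0.01% of all genes were in either direction, and 3 of the 9 had an unadjusted p under 0.05, against 12% of all genes. These were Hsp90aa1 (-0.69, SE 0.25, limma adjusted p = 0.288), Bag3 (-0.66, SE 0.212, limma adjusted p = 0.228) and Dnajb1 (-0.63, limma adjusted p = 0.406). Hsp90aa1 was called without AKI 4 (-0.83, adjusted p = 0.0374) and Bag3 without VHL-KO/AKI 5 (-0.79, adjusted p = 0.0314). The median over the 9 genes was -0.53, against -0.02 over all genes.

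By group, the order of levels was therefore uninjured, then VHL-KO/AKI, then AKI for Hspa1a, Hsph1, Dnajb1, Bag3, Hsp90aa1, Hspb1 and Hspb8. Control and VHL-KO were not told apart by the test for any of them. The Hsp90aa1 arrays of VHL-KO all lay above those of control, as held for 11.8% of all genes. VHL-KO/AKI and AKI were told apart by the test for Bag3 alone among these 7, a call lost in a fit of those groups alone (adjusted p = 0.0676), and VHL-KO and VHL-KO/AKI were not told apart for Hsph1 and Dnajb1.

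The chaperone network around these genes was read from 11 lists with 106 genes, of which 104 were measured (Hsf1 and Hsp90ab1 were not analysed here). In AKI against control, 30 rose, 11 fell and 63 did not pass, with a median of 0.18. The counts of the single lists stand against 13.2% of all genes that rose and 14.9% that fell, and several lists lie near those shares. Among cofactors of HSP70, 4 of 14 J-domain genes rose and 0 fell. Dnajb4 differed by 1.15 (adjusted p = 0.00283), Dnajc5, which acts at secretory vesicles, by 0.87 and Dnaja4 by 0.63. Of 8 nucleotide exchange and BAG genes, 2 rose and 3 fell. Bag2, which restrains the ubiquitin ligase partner of HSP70, rose by 1.67 (adjusted p = 0.000108) and Bag5 by 0.43, whereas Bag4 fell by 0.39.

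HSP70 relatives moved less than Hspa1a. Of 9, 3 rose and 1 fell, with Hspa4, an HSP110 protein, up by 0.56, Hspa9, the mitochondrial HSP70, up by 0.30 and Hspa12a lower (-0.57). Of 13 HSP90 genes and cochaperones, 4 rose and 2 fell. Fkbp5, a steroid receptor cochaperone induced by glucocorticoids, rose by 1.88 (adjusted p = 0.00338) and Ahsa2, an activator of HSP90, by 0.73. Fkbp4, its close relative with an opposing role on the receptor, fell by 1.08 (adjusted p = 0.000206).

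Among 8 further small heat shock proteins 2 rose, Hspb6 by 0.82 and Hspb9 by 0.16. Hspb9 was dim, at 4.60 in control and 4.76 in AKI, where array medians lay at 5.92 to 6.03. Cryab, an abundant small heat shock protein of the renal medulla that was picked after its values were seen, differed by 0.41 (adjusted p = 0.142). Hsf2, a heat shock factor, rose by 0.67 (adjusted p = 0.00228) and Hsf2bp fell by 0.42. They were the only 2 to pass of 6 genes in the list of heat shock factors and their partners, and Hsf2bp is a binding partner of Hsf2.

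Of 8 subunits of the cytosolic chaperonin TRiC, 7 rose and 0 fell, with a median of 0.40. Cct3 differed by 0.71, Cct2 by 0.47 and Cct5 by 0.45 (adjusted p = 0.00925, 0.000836 and 0.0142). Prefoldin, which passes clients to TRiC, had 2 of 6 subunits up (Vbp1 by 0.80, Pfdn4 by 0.62) and Pfdn5 down (-0.64). Of 13 mitochondrial chaperones and proteases, 2 rose and 2 fell. Hspe1, the HSP10 partner of Hspd1, rose by 0.57 (adjusted p = 0.0224), whereas Trap1, the mitochondrial HSP90, and Clpb were lower (-0.49 and -0.41).

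Of 14 endoplasmic reticulum chaperones, 2 rose and 0 fell, Dnajb9 by 1.22 (adjusted p = 2.52e-05) and Hspa5, the HSP70 of that compartment, by 1.04 (adjusted p = 0.000751). Among 8 autophagy partners, 2 rose and 2 fell. Sqstm1, the cargo receptor p62, rose by 1.11 (adjusted p = 6.54e-06) and Vcp, a segregase, by 0.78, whereas Gabarapl1 fell by 0.86.

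**Figure D5:**
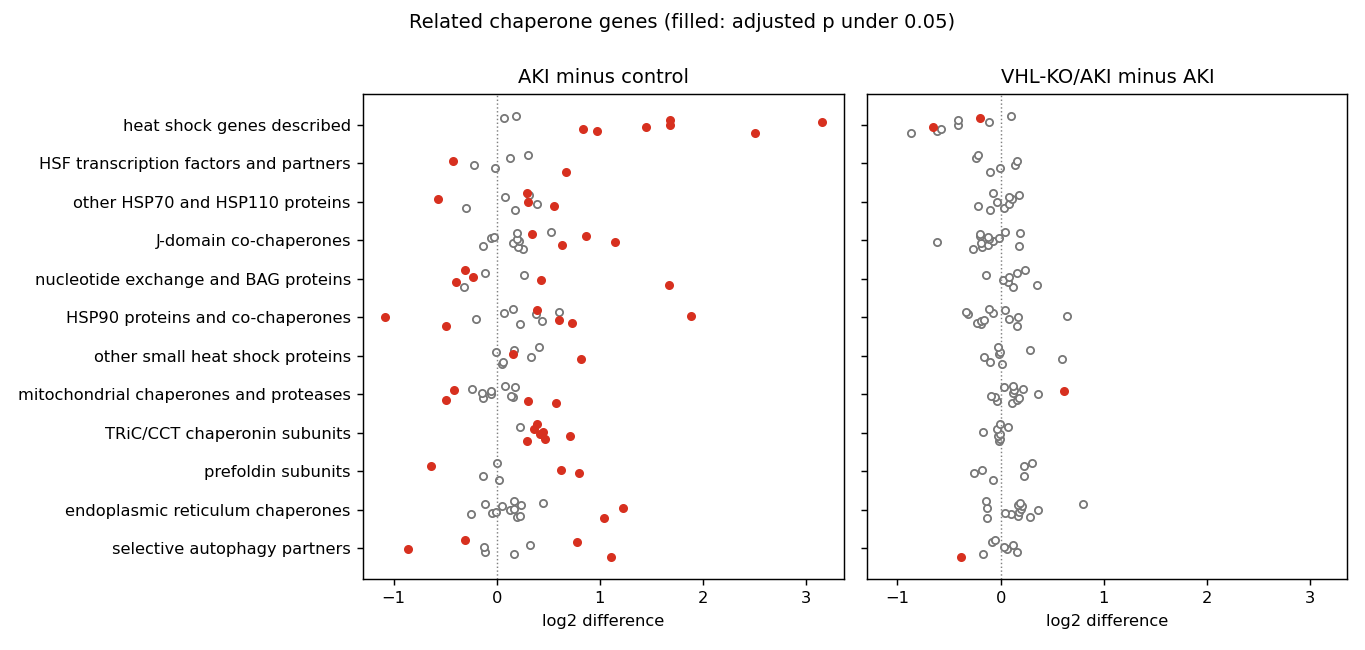
Log2 difference (horizontal axis) of every measured gene of 11 related lists and of the 9 heat shock genes, with 1 point per gene, filled where the adjusted p is under 0.05. In AKI minus control 30 related genes rose and 11 fell, and in VHL-KO/AKI minus AKI 1 rose and 1 fell.

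In VHL-KO/AKI against AKI, 1 of the 104 related genes rose, 1 fell and 102 did not pass, where 2.48% of all genes rose and 1.4% fell. Sqstm1 fell by 0.38 (SE 0.0876, adjusted p = 0.0296) and Clpx, a subunit of a mitochondrial protease, rose by 0.61 (adjusted p = 0.022). Bag2 stood apart from Bag3 in its group means, which were 6.11 in control, 7.03 in VHL-KO, 7.78 in AKI and 8.14 in VHL-KO/AKI. Its differences with deletion were 0.92 without injury (adjusted p = 0.168) and 0.35 with it (adjusted p = 0.356), and neither passed. In VHL-KO against control 0 of the 104 were called by limma, where 0.527% of all genes were in either direction. In VHL-KO/AKI against VHL-KO, 15 rose and 8 fell, where 4.66% of all genes rose and 8.91% fell.

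The genes with the most similar profiles were found from the root mean square difference over the 16 arrays, after each gene was set to its own control mean. For Hspa1a these were Sh3bp2 (0.486 log2 units), Pxdc1 (0.487) and Dusp5 (0.521). For Hspb1 they were Akr1b8 (0.43), Tubb6 (0.461) and Pvr (0.526). For Hspd1 they were Tcp1 (0.113), a TRiC subunit, Arcn1 (0.119) and Ssr3 (0.124). These distances describe 16 arrays that share the injury contrast.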

How the data were processed

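The deposited table holds log2 probe set levels from the authors, 3.34 to 14.71, for 35556 rows and 16 arrays. The submitters' processing notes name Partek 6.4 and RMA. Settings and build: not given in the sources used here. Array medians lay at 5.92 to 6.03 and were not adjusted. The number of arrays limits the precision, and p-values measure only the spread between the labelled biological replicates.

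The probe table pairs 21789 rows with 1 gene symbol, 1621 with several and 12146 with none. The row with the highest mean stood for each of 19938 genes, with no filter on low values. All 4 groups were fitted together in limma 3.58.1 (R 4.3.3), 1 mean per group, with Benjamini-Hochberg adjustment over all genes and 2-sided calls at an adjusted p under 0.05. The fit was tested on simulated data. SD is over arrays, and SE and 95% intervals come from the fit.

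The members and lists were chosen with earlier results of these data known. Named genes are all members, up to 3 called genes per related list with the largest difference in AKI against control and up to 2 in VHL-KO/AKI against AKI, the 3 nearest profiles of Hspa1a, Hspb1 and Hspd1, Vhl, and markers. Bag2 in the other comparisons, and Cryab, were added after their values were seen. Alternatives covered row choice, a filter on dim genes, scaling, variance model, array weights, samples in the fit, a replicate block, a sex-linked covariate and leaving out arrays.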

Additional observations from a re-analysis of the deposited data

Results flagged for a closer look

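Hspb1 in AKI 4 stood at 10.59, apart from the other 4 AKI arrays at 11.84 to 12.20. It was the only 1 of 18 gene and group combinations of 5 arrays with a sample this far from the rest, and chance gives about 1 in 20.

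For Hsp90aa1 each of 3 VHL-KO arrays lay above the control mean of 10.32, and each of 5 VHL-KO/AKI arrays lay below the AKI mean of 12.00. Neither difference passed (0.28, limma adjusted p = 0.796, and -0.41, limma adjusted p = 0.161), and the injured groups overlapped, with AKI 4 at 11.43. The interaction was -0.69 and did not pass either (limma adjusted p = 0.288).

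The row paired with both Hspa1a and Hspa1b, which stands for no gene in the tests, was higher in AKI than in control by 2.23 on the log2 scale (adjusted p = 0.000986 over all rows).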

How the results depend on the processing

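For the 9 genes, 28 alternatives were run for each comparison of 2 groups and 27 for the interaction. The count of genes called in AKI against control (7) was 6 to 7 with any array left out and 0 with the sex-linked covariate. In VHL-KO/AKI against VHL-KO (5) it was 4 to 5 and 0. In fits of the compared groups alone these counts were 6 and 6: Hsph1 lost its call in AKI against control (adjusted p = 0.0876) and gained one in VHL-KO/AKI against VHL-KO (adjusted p = 0.0276). In VHL-KO against control it was 0 in each alternative. In VHL-KO/AKI against AKI (2) it was 1 to 6 with an array left out, 1 without dim genes, 1 under quantile scaling, 1 under cyclic loess, 1 with trend and robust variance, 1 with every row tested, 7 with array weights, 0 in a fit of the compared groups alone (Bag3 adjusted p = 0.0676), and 5 with Control 3 and AKI 4 both left out, an alternative chosen after seeing the data, as was testing every row. For the interaction (0) it was 2 with array weights and 0 to 1 with an array left out. The cause was not tested. Correlations of deviations from group means between same-numbered arrays ran from -0.38 to 0.2, with 3 of 20 pairs over 0.1. Differently numbered arrays were not set beside them, so whether the numbers carry a pairing was not settled. With the replicate block the counts stayed at 7 for AKI against control, 5 for injury within VHL-KO, 0 for deletion alone, 0 for the interaction and 2 for deletion within AKI, where Hspa8 was lost (adjusted p = 0.0534) and Dnajb1 gained (adjusted p = 0.0317).

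Signs turned only for differences that were not called. In VHL-KO against control, Dnajb1 was -0.03 under quantile scaling and -0.03 under cyclic loess (-0.05 to 0.14 with an array left out), Hspb8 -0.01 under cyclic loess and -0.02 without Control 3 and AKI 4 (-0.02 to 0.17), Bag3 -0.07 to 0.05, Hspd1 0.00 to 0.13 and Hsph1 -0.25 to 0.17. In VHL-KO/AKI against VHL-KO, Hspa8 was -0.04 under cyclic loess and -0.03 with the replicate block (-0.03 to 0.03), and Hspd1 -0.34 with the covariate. In AKI against control, Hspd1 was -0.27 with the covariate, and in VHL-KO/AKI against AKI, Hspb1 was -0.40 to 0.01. The Hspd1 interaction was 0.00 under quantile scaling, -0.04 with array weights, -0.07 with the covariate, -0.05 without Control 3 and AKI 4 and -0.04 to 0.10 with an array left out. Over all genes, the count for VHL-KO/AKI against AKI (774) ran from 229 to 2384 with an array left out, that for VHL-KO against control (105) from 34 to 235, that for the interaction (2) from 0 to 620, that for VHL-KO/AKI against VHL-KO (2705) from 1683 to 3910 and that for AKI against control (5600) from 4248 to 6811. With array weights these counts were 2868, 319, 885 and 4328 for the first 4. The count for VHL-KO/AKI against AKI was 223 in a fit of the compared groups alone, 438 with every row tested and 2196 without Control 3 and AKI 4. For VHL-KO against control it was 64 with arrays centred, 65 with the replicate block, 18 with the covariate and 69 with every row tested.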
